A study of Homo sapiens with 6 samples.

Results

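The replication-independent histone variants are histones whose genes are transcribed throughout the cell cycle into polyadenylated mRNA, and 9 such genes were taken by symbol from the 35268 named genes of the table: H2AZ1, H2AZ2, H2AX, H2AJ, H3-3A, H3-3B, H1-10, MACROH2A1 and MACROH2A2. Rh30 is an established cell line of fusion-positive rhabdomyosarcoma (FP-RMS), a childhood muscle-lineage tumor driven by the PAX3-FOXO1 fusion protein. Cells were treated for 24 hours with 1 µM YK-4-279, a small molecule that interferes with protein interactions of ETS transcription factors, or with the vehicle DMSO, and mRNA was sequenced from 3 libraries in each group. All libraries came from this cell line, and no other line, dose or time was measured. The comparison asks how the drug alters the transcriptome of these cells.

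A nucleosome wraps DNA around core histones, and most core histone protein is made in S phase from clustered genes whose mRNAs end in a stem-loop in place of a poly(A) tail. Variant histones are instead placed into chromatin outside replication by dedicated chaperones and remodelers: H3.3 by HIRA and by DAXX with ATRX, and H2A.Z by the SRCAP and p400 complexes. H2AX is phosphorylated around DNA breaks, macroH2A carries a large macro domain and is enriched in silent chromatin, and H1-10 is a linker histone that binds the DNA between nucleosomes.

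H2AX differed from the other members in sequence. Its MANE Select transcript, the reference transcript agreed between GENCODE and RefSeq, was the only member transcript with a histone stem-loop, searched on the transcript strand by its conserved stem and T-rich loop. The element with its 5 flanking bases on each side is shown because it is the mark of replication-dependent histone mRNAs, with the matched letters in capitals:

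H2AX (chr11:119094893-119094918, minus strand, hg38): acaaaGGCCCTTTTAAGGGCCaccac

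The match began at base 553 of 1592, in the 3′ untranslated region, and 1024 bases of transcript followed it, so this transcript reads through the stem-loop to a later end. H2AX is known to give both a short mRNA that ends at the stem-loop and a longer polyadenylated one. The pattern was found in 87 of 20018 protein-coding genes (0.435%), and in 65 of the 68 replication-dependent histone genes of the annotation. Among the members, H2AX is thus the gene that also carries the element of the replication-dependent class. The libraries were made from polyA RNA, and values were given per gene, so that the forms of H2AX were not measured apart.

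The promoters of the members that the results turn on are shown next, as the 250 bases before the RefSeq start on GRCh38.p14, the build of the authors' hg38 alignment. They are H2AX, the member with the largest change, and H3-3A and H3-3B, which encode the same protein. H3-3A has 4 RefSeq starts, and the window shown is that of its MANE Select transcript. CCAAT on either strand, a site bound by NF-Y, and TATAAA, the core promoter element, are in capitals:

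H2AX (chr11:119095466-119095715, minus strand): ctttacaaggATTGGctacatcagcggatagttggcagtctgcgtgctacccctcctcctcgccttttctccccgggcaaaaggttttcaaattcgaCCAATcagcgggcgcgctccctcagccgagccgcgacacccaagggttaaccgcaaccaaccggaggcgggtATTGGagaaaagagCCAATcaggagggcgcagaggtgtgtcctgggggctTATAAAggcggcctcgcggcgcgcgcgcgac

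H3-3A (chr1:226062466-226062715, plus strand): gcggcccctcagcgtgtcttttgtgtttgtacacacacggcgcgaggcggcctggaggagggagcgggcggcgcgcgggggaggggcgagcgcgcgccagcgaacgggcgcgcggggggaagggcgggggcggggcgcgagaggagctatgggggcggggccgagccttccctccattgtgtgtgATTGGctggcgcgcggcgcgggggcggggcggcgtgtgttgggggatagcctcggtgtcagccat

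H3-3B (chr17:75779780-75780029, minus strand): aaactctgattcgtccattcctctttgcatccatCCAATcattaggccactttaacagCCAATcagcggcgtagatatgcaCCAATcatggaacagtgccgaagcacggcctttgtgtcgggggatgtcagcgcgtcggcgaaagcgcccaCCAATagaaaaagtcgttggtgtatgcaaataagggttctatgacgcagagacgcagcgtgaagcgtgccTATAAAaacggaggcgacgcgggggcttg

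H2AX and H3-3B each held 4 CCAAT matches and a TATAAA, at 31 and 29 bases before the start, whereas H3-3A held 1 CCAAT and no TATAAA. H2AZ2 also held 4 CCAAT matches, H2AZ1 and H2AJ held 3 each, and H1-10, MACROH2A1 and MACROH2A2 held none. Among 34943 promoter windows of the same length, 32% held CCAAT on either strand, 2.93% held it 3 or more times, and 10.8% held TATAAA. The cell cycle homology letters TTTGAA were matched among members in H2AX alone (13.4% of windows), the E2F-like letters GCGGGAA or GCGCCAA in H1-10 alone (7.8%), and the ETS-like letters CCGGAAG in no member (8.48%). Both strands were searched, the letters were chosen after the promoters had been seen, and a match describes letters and not a bound site.

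Normalized counts are read numbers scaled by a size factor per library, and undoing that scaling gave whole reads, within 0.01 of a read, for 100% of values. In DMSO replicate 2 and YK-4-279 replicate 3 the size factor was close to 1, so that whole reads there rest on a very small rescaling. The libraries held 16724650 to 24677433 reads. DMSO replicate 1 stood apart, with a mean correlation across genes of 0.989 to the remaining libraries (0.992 or more for every other library) and 6.05% of reads on mitochondrial genes (4.74% to 5.03% elsewhere). The rhabdomyosarcoma marker MYOD1 had 34516 to 39146 normalized counts in the 6 libraries. The others of that list were lower, with MYOG at 11115 to 16587, DES at 6188 to 7577, TFAP2B at 1034 to 1117 and CDH3 at 171 to 264. The leukocyte markers PTPRC and CD3E and the epithelial markers CDH1 and KRT5 had at most 1.71. EPCAM had 50.1 to 88.3, and the endothelial markers PECAM1, CDH5, VWF and KDR had 3.43 to 29.0. Members' values with and without DMSO replicate 1 are given below. The labels name replicates but not their cultures, so that p-values measure the spread between these libraries, which may be technical.

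**Figure D1:**
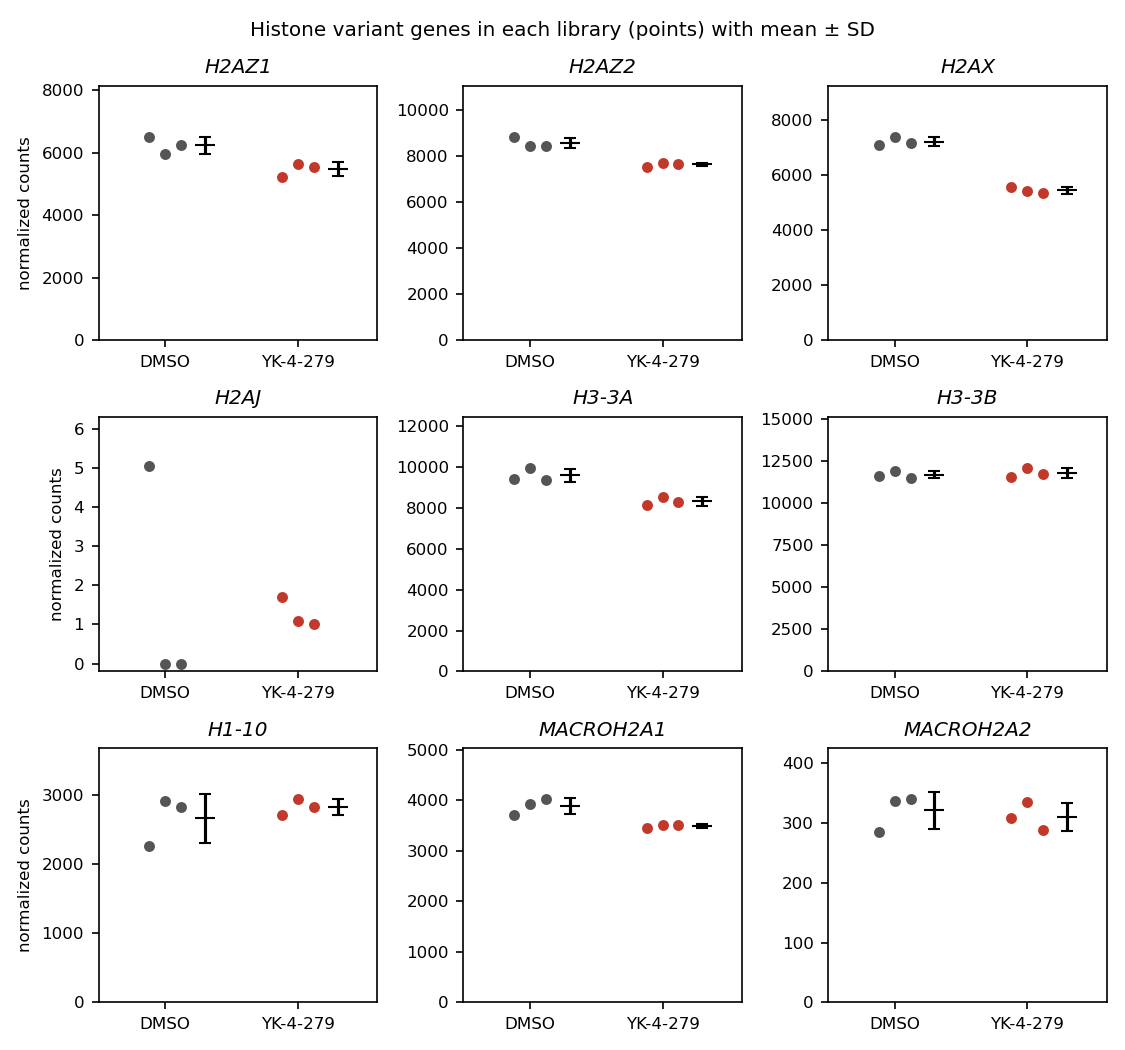
Normalized counts of the 9 histone variant genes in each library, with DMSO in grey and YK-4-279 in red. Bars are mean ± SD (n = 3), except for H2AJ with at most 4 reads per library. The 3 red points of H2AX lie between 5338 and 5574, below all 3 grey points.

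H2AX was lower after YK-4-279 treatment, and it was the only member to pass in limma across all genes with a mean of at least 10. With the same 6 libraries, 2 members passed in DESeq2 and in limma with a minimum mean of 100. With GC content and length trends removed, 5 passed in limma. In limma with eBayes without trend 0 passed, with H2AX at an adjusted p of 0.0755. Over all genes, 475 were called in the main fit, 632 in DESeq2 and 467 with a minimum mean of 100. With GC content and length trends removed 1958 were called, and 10.7% of genes tested fell, against 2.15% in the main fit. Without trend 33 were called. H2AX, a single-exon gene at chr11:119093874-119095465 on the minus strand, had 7100, 7382 and 7149 normalized counts in DMSO replicates 1, 2 and 3. With YK-4-279 it had 5574, 5408 and 5338. The groups did not overlap, and the highest drug-treated library lay well below the lowest DMSO library. The mean of H2AX fell by 24.6%, being 7210 ± 151 normalized counts with DMSO and 5440 ± 121 with YK-4-279 (SD, n = 3 each). On the log2 scale the change was -0.41 ± 0.05 (SE), and limma with Benjamini-Hochberg adjustment over 13930 genes gave an adjusted p of 0.00225. The replicates of either group differed by a coefficient of variation of 2.09% and 2.23%, little above the 1.42% that counting alone gives in the library with the fewest H2AX reads, YK-4-279 replicate 2. Without DMSO replicate 1 the log2 fold change was -0.42 (limma adjusted p = 2.57e-11). Among fits with a single library left out, the highest limma adjusted p was 0.0412, without YK-4-279 replicate 2, at -0.40.

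Of the 8 members with enough reads to test, 1 fell at an adjusted p under 0.05, and 0 rose. For comparison, 3.41% of all genes tested passed by the same rule, namely 2.15% that fell and 1.26% that rose. Of the 13930 genes tested, 270 had a lower log2 fold change than H2AX, and by absolute log2 fold change H2AX ranked 1123. In bulk RNA, fewer cells in a cell cycle phase and less RNA per cell cannot be told apart. The mean log2 level of 25 proliferation genes moved in the same direction, from 12.08 to 12.16 in DMSO libraries to 11.81 to 11.88 in drug-treated libraries, and its part in the change of H2AX was not tested.

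Neither H3.3 gene passed in limma with all 6 libraries and a minimum mean of 10. H3-3A passed in 4 of 18 alternatives. With all 6 libraries it passed in DESeq2 (adjusted p = 0.0171) and in limma with a minimum mean of 100 (adjusted p = 0.0488) or with GC content and length trends removed (adjusted p = 0.00416). It did not pass in edgeR (adjusted p = 0.0696) or in limma with quantile normalization (adjusted p = 0.111) or the replicate block (adjusted p = 0.117). H3-3A and H3-3B encode an identical H3.3 protein from different chromosomes, and their coding sequences differ at 88 of 411 bases (78.6% identity). H3-3A, at chr1:226061851-226072019, had 9429, 9956 and 9381 normalized counts with DMSO and 8128, 8530 and 8292 with YK-4-279. H3-3B, at chr17:75776434-75785893, had 11646, 11922 and 11528 with DMSO and 11593, 12109 and 11716 with YK-4-279. The groups did not overlap for H3-3A and overlapped for H3-3B. The log2 fold change of H3-3A was -0.20 ± 0.05 (SE, limma adjusted p = 0.0548), just short of the threshold. Without DMSO replicate 1 it was -0.22 (limma adjusted p = 7.45e-05), and without YK-4-279 replicate 1 it was -0.19 (limma adjusted p = 0.286). The log2 fold change of H3-3B was 0.01, with a 95% confidence interval of -0.10 to 0.12 (limma adjusted p = 0.924).

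The ratio of the H3.3 genes compares them within a library, so that it does not depend on the normalization. H3-3A made up 44.7%, 45.5% and 44.9% of the normalized counts of the pair in the DMSO libraries and 41.2%, 41.3% and 41.4% in the drug-treated libraries. The share was 45.0% ± 0.41 with DMSO and 41.3% ± 0.11 with YK-4-279 (SD, n = 3 each), a difference of -3.71 percentage points. The groups did not overlap, and the exact two-sided permutation test gave p = 0.1, the smallest value that 3 against 3 libraries allow (Benjamini-Hochberg adjusted p = 0.3 over 3 pairs). Without DMSO replicate 1 the difference was -3.85 percentage points, and leaving out other libraries in turn kept it at -3.47 or below. The sum of both genes was 21287 ± 518 normalized counts with DMSO and 20123 ± 469 with YK-4-279, and these groups did not overlap either.

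H3-3A has processed copies that can share its reads. Of 921 stretches of 150 bases, the read length, along its transcript, 524 (56.9%) occurred also in 5 other annotated transcripts, among them the pseudogenes H3P6, H3P16, H3P36 and H3P47. Of these H3P36 was in the table, with 0 to 4.28 normalized counts. H3-3B shared 0 of 2556 stretches, and the longest run of bases that both H3.3 transcripts had in common was 14. The authors counted reads with STAR, whose gene counting takes uniquely mapped reads, so that reads matching a copy equally well would be missing from H3-3A, and how many were missing was not measured. H3-3B overlaps UNK on the opposite strand, with 1127 to 1484 normalized counts, and whether counting used strand is not given in the sources used here.

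**Figure D2:**
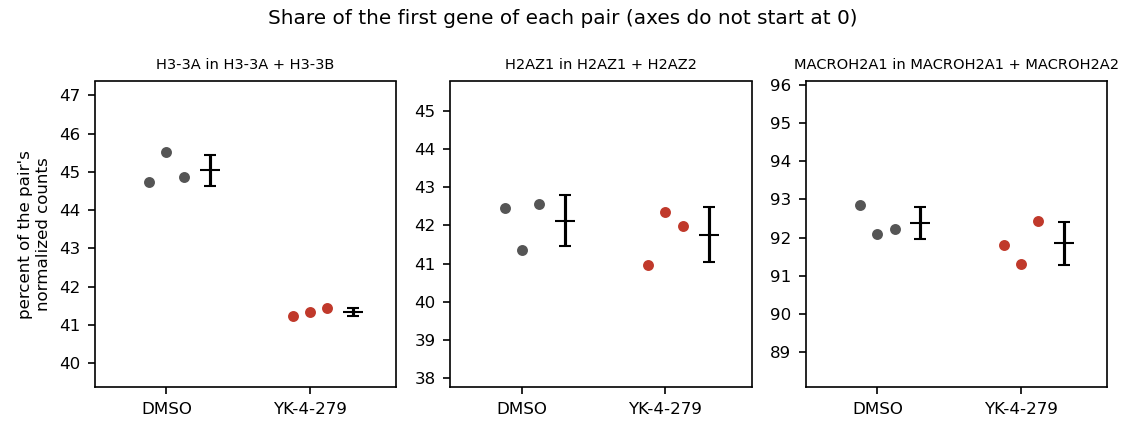
Share of the first gene in the normalized counts of each pair, in percent, in each library, with DMSO in grey, YK-4-279 in red and bars of mean ± SD (n = 3). The vertical axes span 8 percentage points and do not start at 0. The share of H3-3A is 44.7% to 45.5% with DMSO and 41.2% to 41.4% with YK-4-279, while the groups overlap for the other pairs.

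Both H2A.Z genes were lower in every drug-treated library than in any DMSO library, though neither passed in limma across all genes with a mean of at least 10. H2AZ1 and H2AZ2 encode nearly identical H2A.Z proteins, and their coding sequences are 80.4% identical. H2AZ1, at chr4:99948086-99950355, had 6500, 5944 and 6255 normalized counts with DMSO and 5224, 5643 and 5534 with YK-4-279, which differ by -0.19 ± 0.06 on the log2 scale (SE, limma adjusted p = 0.0931). H2AZ2, at chr7:44826791-44848087, had 8815, 8432 and 8440 with DMSO and 7531, 7685 and 7650 with YK-4-279, which differ by -0.17 ± 0.05 (SE, limma adjusted p = 0.0967). Both had closely similar changes. Without DMSO replicate 1 the values were -0.16 and -0.15, and both passed the threshold (limma adjusted p = 0.00538 and 0.00646). Neither passed when any other single library was left out, where the limma adjusted p reached 0.409 for H2AZ1 and 0.362 for H2AZ2.

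The proportion of the H2A.Z genes overlapped between the groups. H2AZ1 made up 42.4%, 41.3% and 42.6% of the pair with DMSO and 41.0%, 42.3% and 42.0% with YK-4-279, groups that overlap. The difference was -0.36 percentage points (exact two-sided permutation test, p = 0.5), by a test that cannot give a p under 0.1 here. This difference lay between -0.75 and 0.039 when single libraries were left out, with the change of sign without YK-4-279 replicate 1. The sum of both genes was 14795 ± 478 with DMSO and 13089 ± 298 with YK-4-279.

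The macroH2A genes differed in level by an order of magnitude. MACROH2A1, at chr5:135334381-135399914, had 3708, 3921 and 4029 normalized counts with DMSO and 3452, 3514 and 3520 with YK-4-279, groups that did not overlap. Its log2 fold change was -0.15 ± 0.06 (SE, limma adjusted p = 0.168), and without DMSO replicate 1 it was -0.19 (limma adjusted p = 0.00104). When other single libraries were left out it did not pass, with a limma adjusted p of up to 0.464. MACROH2A2, at chr10:70052544-70112282, had 285, 337 and 340 with DMSO and 308, 335 and 288 with YK-4-279, groups that overlapped. On the log2 scale the difference was -0.05, within a 95% interval of -0.27 to 0.18 (limma adjusted p = 0.854), and with 226 to 407 reads per library its counting error reached 6.65%. AIFM2, which overlaps it on the opposite strand, had 138 to 197 normalized counts. MACROH2A1 made up 92.4% ± 0.41 of the pair with DMSO and 91.9% ± 0.57 with YK-4-279 (SD, n = 3 each, exact two-sided permutation test, p = 0.3).

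H1-10, also known as H1X, was not detectably different. The gene, at chr3:129314771-129316286, had 2252, 2902 and 2814 normalized counts with DMSO and 2709, 2937 and 2819 with YK-4-279. DMSO replicate 1 was the lowest of the 6 libraries, and the other 5 lay between 2709 and 2937. The log2 difference was 0.10, within a 95% interval of -0.09 to 0.28 (limma adjusted p = 0.584), and without DMSO replicate 1 it was -0.02, within -0.11 to 0.07 (limma adjusted p = 0.843). The transcript of H1-10 is 68.6% G and C, above 99.3% of genes tested, and that of H2AX is 66.8%, whereas the other tested members lie between 42.8% and 52.9%.

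H2AJ was close to undetected. The gene, at chr12:14774405-14778002, had 4, 0 and 0 reads in DMSO replicates 1, 2 and 3 and 2, 1 and 1 in the drug-treated replicates. A count of 0 allows up to 3 reads, and no fold change was computed. Such limits cover counting error only. H2AJ is a mammalian variant of H2A described in senescent cells.

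**Figure D3:**
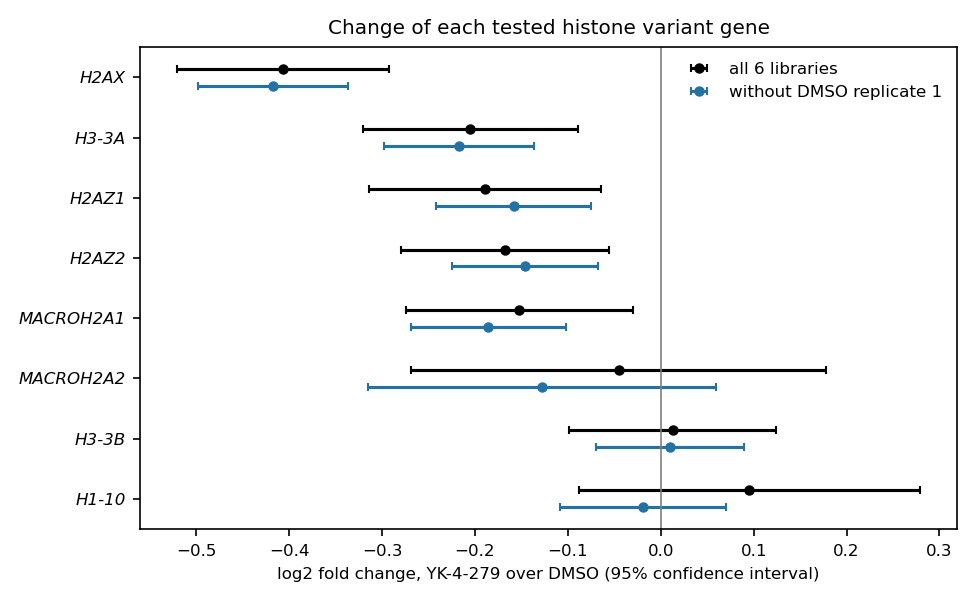
Log2 fold change of each tested histone variant gene, YK-4-279 over DMSO, with 95% confidence intervals from limma, for all 6 libraries in black and without DMSO replicate 1 in blue. H2AX lies lowest, at -0.41 and -0.42, and H1-10 changes sign between the fits, from 0.10 to -0.02.

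Together, 6 of the 8 tested members had a negative log2 fold change, and 5 had drug-treated libraries that all lay below all DMSO libraries, namely H2AX, H3-3A, H2AZ1, H2AZ2 and MACROH2A1. Such a separation occurred toward lower values in 15.1% of all genes tested, and toward higher values in 10.9%. The median log2 fold change of the tested members was -0.16, against -0.01 over all genes tested. Of the reads of a library, 0.236% to 0.245% lay on the 9 members with DMSO and 0.224% to 0.227% with YK-4-279. Without DMSO replicate 1, the 5 genes just named fell at an adjusted p under 0.05, at which 8.45% of all genes tested fell. After removal of the GC content and transcript length trends within libraries, these 5 fell as well, against 10.7% of all genes tested.

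Per length of transcript, the most abundant of the variants was H3-3A. It had 8961 ± 298 normalized counts per kilobase of its MANE Select transcript with DMSO, followed by H2AZ1 with 7197 ± 322, H2AX with 4529 ± 94.8, H3-3B with 4325 ± 74.8, H2AZ2 with 2829 ± 72.4, MACROH2A1 with 2027 ± 85.0, H1-10 with 1752 ± 233 and MACROH2A2 with 166 ± 15.95 (SD, n = 3 each). No neighbours in this order overlapped between DMSO libraries, though the ranges of H2AX and H3-3B, at 4460 to 4637 and 4262 to 4407, and of MACROH2A1 and H1-10, at 1934 to 2102 and 1485 to 1914, lay close together. With YK-4-279 the order of H2AX and H3-3B changed, since H2AX had 3353 to 3501 and H3-3B had 4286 to 4476 normalized counts per kilobase. MACROH2A1 and H1-10 overlapped under the drug, at 1800 to 1836 and 1787 to 1937. These levels assume that each gene is read from its MANE Select transcript.

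**Figure D4:**
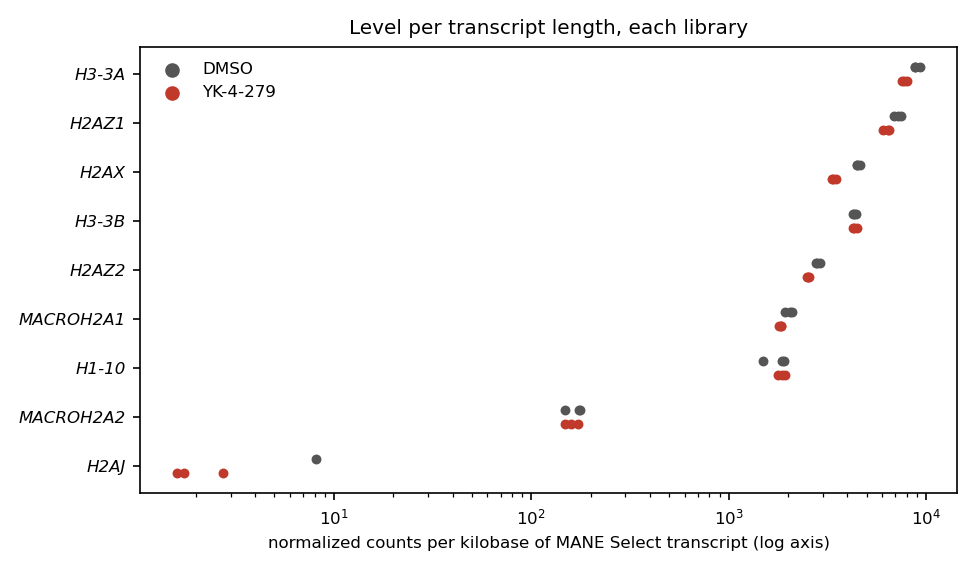
Normalized counts per kilobase of MANE Select transcript on a log axis, 1 point per library, with DMSO in grey and YK-4-279 in red. H3-3A and H2AZ1 lie highest, MACROH2A2 lies at 147 to 176, and the DMSO libraries with 0 reads of H2AJ are not drawn.

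The genes nearest to H2AX in their pattern over the 6 libraries were SOX13, EDN3 and SFMBT1, among 10698 genes with a mean of at least 100. Likeness was the root mean square distance between log2 profiles, each centred on its mean, and it was 0.0155, 0.0274 and 0.0415. SOX13, a transcription factor of the SOX family, had 1205, 1281 and 1233 normalized counts with DMSO and 945, 936 and 901 with YK-4-279. With 6 libraries in 2 groups, any gene with a like difference lies near.

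Of the genes that place H3.3, 2 of 9 tested fell and 0 rose. They were ASF1B, an H3-H4 chaperone of dividing cells, with 2434 ± 78.2 normalized counts with DMSO and 1962 ± 16.8 with YK-4-279 (log2 fold change -0.31, limma adjusted p = 0.0122), and DEK, the member of the list with the highest mean, with 4233 ± 473 and 3410 ± 73.0 (log2 fold change -0.31, limma adjusted p = 0.0375). HIRA, the scaffold of the HIRA complex, had 320, 365 and 364 with DMSO and 332, 363 and 391 with YK-4-279. Of the 9 genes, 4 had a positive and 5 a negative log2 fold change. UBN1, UBN2 and CABIN1 were higher in every drug-treated library than in any DMSO library. Their log2 fold changes were 0.19, 0.15 and 0.11 (limma adjusted p = 0.0902, 0.233 and 0.375). At an unadjusted limma p under 0.05, 2 genes of the list rose and 2 fell. Over all genes tested, 2.15% fell and 1.26% rose at an adjusted p under 0.05. The count of 2 became 0 without DMSO replicate 3 and without any 1 of the drug-treated libraries. Without DMSO replicate 1, 2 genes of the list fell and 2 rose, and with total-count scaling 1 fell and 1 rose.

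For H2A.Z exchange, 0 of 31 genes tested passed in limma in either direction, while 4 had an unadjusted p under 0.05 and edgeR called 1 higher. Limma called 1 higher without DMSO replicate 1 and with total-count scaling, and 1 higher and 2 lower with GC content and length trends removed. MORF4L1, the member with the highest mean, had 8033 ± 379 normalized counts with DMSO and 7885 ± 397 with YK-4-279 (log2 fold change -0.03, limma adjusted p = 0.848). SRCAP, the ATPase that exchanges H2A.Z into nucleosomes, had 122, 109 and 144 with DMSO and 125, 137 and 160 with YK-4-279. ANP32E, a chaperone that removes H2A.Z, had 3742, 3179 and 3230 with DMSO and 2905, 3043 and 2909 with YK-4-279, groups that did not overlap (limma adjusted p = 0.149).

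Of the general histone chaperones, 4 of 20 tested fell and 0 rose, while 2.15% of all genes tested fell. CHAF1B, a subunit of the replication-coupled chaperone CAF-1, had a log2 fold change of -0.35 (limma adjusted p = 0.0236), and RBBP4, its partner subunit, one of -0.32 (limma adjusted p = 0.0129). HELLS, a chromatin remodeler, and RBBP7 were at -0.31 and -0.27 (limma adjusted p = 0.0284 and 0.0222). NPM1, the member with the highest mean, had 26336 ± 1919 normalized counts with DMSO and 23023 ± 1023 with YK-4-279 (limma adjusted p = 0.117). The count was 0 without any 1 of the drug-treated libraries and 1 without DMSO replicate 3. It was 11 without DMSO replicate 1, where 2 others rose and 8.45% of all genes tested fell. With GC content and length trends removed 13 fell and 2 rose, where 10.7% of all genes tested fell. With total-count scaling 2 fell.

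Of the genes that act with H2AX at DNA breaks, 2 of 22 tested fell and 0 rose, while 2.15% of all genes tested fell. MRE11, a nuclease of the break-sensing MRN complex, had 947 ± 68.0 normalized counts with DMSO and 715 ± 47.9 with YK-4-279 (log2 fold change -0.40, limma adjusted p = 0.0164). BRCA1, which acts in homologous recombination, had a log2 fold change of -0.34 (limma adjusted p = 0.0226). PRKDC, the kinase with the highest mean of the list, had -0.22 (limma adjusted p = 0.0603), and ATM, which phosphorylates H2AX, had -0.05 (limma adjusted p = 0.727). MDC1, the protein that binds phosphorylated H2AX, had 2132, 2070 and 2112 with DMSO and 2355, 2278 and 2173 with YK-4-279 (limma adjusted p = 0.356). The count was 1 without DMSO replicate 3 and 0 without any 1 of the drug-treated libraries. It was also 1 with quantile normalization and with total-count scaling. Without DMSO replicate 1 or 2, and with GC content and length trends removed, it was 3.

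Proliferation genes, 25 in number, moved with H2AX: 15 fell, 0 rose and the median log2 fold change was -0.27. Over all genes tested, 2.15% fell and the median was -0.01. TYMS and RRM2, which make DNA precursors, had -0.57 and -0.52 (limma adjusted p = 0.0150 and 3.74e-04), and CDK1 and TOP2A, which act in mitosis and chromosome separation, had -0.46 and -0.45 (limma adjusted p = 0.00741 and 0.00626). The count was 20 without DMSO replicate 1, where 8.45% of all genes tested fell. It was 1, 1 and 3 without YK-4-279 replicate 1, 2 and 3.

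Of 20 replication-dependent histone genes tested, among 66 in the table, 4 rose and 0 fell, with H2BC5 at 1.51, H2BC21 at 0.88, H2BC12 at 0.85 and H2AC6 at 0.80 on the log2 scale (limma adjusted p = 6.33e-04, 0.0232, 0.00329 and 0.0114). Over all genes tested, 1.26% rose and 2.15% fell. Poly(A) selection leaves out most mRNA of replication-dependent histone genes, and those tested had at most 233 normalized counts. Genes of the same histone class can be alike in sequence, and how far these genes share reads was not measured. The count of 4 was 8 without DMSO replicate 1 and 1, 2 and 2 without YK-4-279 replicate 1, 2 and 3.

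**Figure D5:**
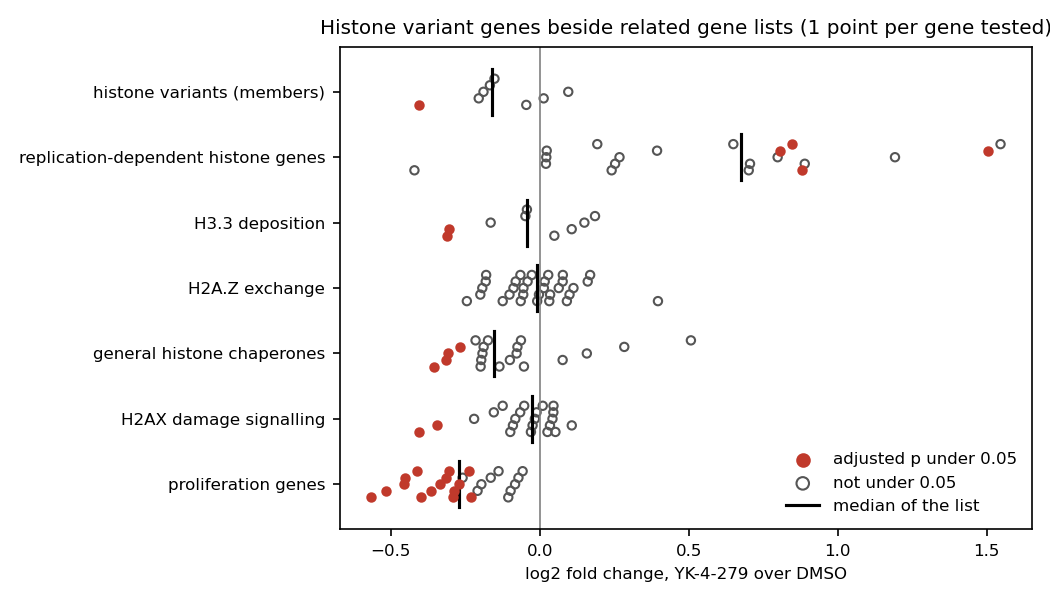
Log2 fold change, YK-4-279 over DMSO, of each tested gene of the histone variants and of 6 related lists, 1 point per gene. Filled red points have a limma adjusted p under 0.05, and black bars are medians, at -0.16 for the variants, -0.27 for proliferation genes and 0.68 for replication-dependent histone genes.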

How the data were processed

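mRNA of Rh30 cells was sequenced as paired reads of 150 bases. Per the paper's methods, the authors used BBDuk for trimming and STAR 2.7.9a for alignment to hg38 and gene counts. The deposited values are a normalized signal, the read counts scaled by a size factor per library. Of 35269 rows, 1 had no gene name and was dropped, with at most 6 reads in any library.

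The members and gene lists were chosen with earlier results of these data known. Genes named were the 9 members, of each list the gene with the highest mean and up to 4 with the largest called changes, and the 3 nearest profiles to H2AX. HIRA, UBN1, UBN2, CABIN1, SRCAP, ANP32E, ATM and MDC1 were added after their values were seen. Lists came from general knowledge, and marker lists called 0 genes. Some genes of these lists are not reported here.

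Groups were compared in R 4.3.3 with limma 3.58.1 (lmFit, eBayes with trend, two-sided) on log2(normalized count + 1) for 13930 genes with a mean of at least 10, with Benjamini-Hochberg adjustment over all of them. Fold changes are on this scale, and those of genes with few reads are understated. Alternatives were other pseudocounts, filters and scalings, leaving out each library, a replicate block, eBayes without trend, edgeR 4.0.16 and DESeq2 1.42.0 on recovered reads, and removal of GC content and length trends. Settings for the related lists were added after the data were seen. Pair shares were tested by exact permutation over 20 arrangements. Code was tested on simulated reads, and intervals cover 95%. Positions and transcripts are from GENCODE v44 on hg38, and promoters from RefSeq, with all 9 members matched.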

Additional observations from a re-analysis of the deposited data

How the results depend on the processing

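H2AX was lower in all 18 alternatives, from -0.51 to -0.35 on the log2 scale, and passed the threshold in 17; in eBayes without trend it was -0.41 with a limma adjusted p of 0.0755. The members called lower were then 0, and they were 2 with a minimum mean of 100 and with DESeq2, where H3-3A passed at -0.20 (adjusted p = 0.0488 and 0.0171, respectively). With GC content and length trends removed they were 5, with H3-3A at -0.20, H2AZ1 at -0.20, H2AZ2 at -0.14 and MACROH2A1 at -0.20. Leaving out single libraries gave 1 to 5 members, with H3-3A at -0.22 to -0.18, H2AZ1 at -0.22 to -0.16, H2AZ2 at -0.18 to -0.15 and MACROH2A1 at -0.19 to -0.13, and only DMSO replicate 1 changed the number. The median of the members was -0.093 with quantile normalization and -0.11 with total-count scaling, and in the other 16 alternatives it stayed within the spread between replicates.

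Small differences changed sign: MACROH2A2 was 0.0081 with total-count scaling, H1-10 was -0.0051 with GC content and length trends removed, and leaving out single libraries gave -0.13 to 0.0062 for MACROH2A2, -0.019 to 0.16 for H1-10, -0.0053 to 0.027 for H3-3B, -0.044 to 0.0023 for the log2 ratio of H2AZ1 to H2AZ2, and -0.75 to 0.039 percentage points for its share. The cause was not tested. Of 475 genes called in all, 62.9% were lower. The number was 277 (52.3% lower) with quantile normalization, 376 (37.2% lower) with total-count scaling, 33 (9.09% lower) without trend, 180 with the replicate block, 1958 (74.8% lower) with GC content and length trends removed, and 19 to 1827 with single libraries left out. The lower share was 21.1%, 36% and 39.1% without YK-4-279 replicate 1, 2 and 3, and 58.7% to 64.6% without a DMSO library. All 475 were among the 1827 called without DMSO replicate 1, and the lowest number, 19, was without YK-4-279 replicate 1.

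Same-numbered replicates were not related (correlations of -0.10, -0.03 and -0.03), and the replicate block changed the call of no member. MACROH2A2 and H2AJ are limited by depth, at 226 to 407 and 0 to 4 reads per library.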
